A study of Bos taurus with 8 samples.

Results

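Aminoacyl-tRNA synthetases were followed in bovine blastocysts grown with or without AAPH, a compound that releases peroxyl radicals as it decomposes. The members were the probes whose gene symbol in the array's annotation is that of a synthetase, and no measured value entered this choice. They were 43 probes of 28 genes, out of 43794 probes with 15227 distinct symbols. A symbol ending in 2 was read as a mitochondrial enzyme, which gave 23 probes of 16 cytosolic genes and 20 probes of 12 mitochondrial genes.

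A synthetase joins an amino acid to the tRNAs whose anticodons read its codons, the step that lets a ribosome use it, and most amino acids have an enzyme of their own. Animal cells hold a cytosolic set and a set that works inside mitochondria, and all of these enzymes are encoded in the nucleus. GARS and KARS are known in human cells to supply both compartments from a single gene each, and FARSA and FARSB are the subunits of 1 cytosolic enzyme, whereas mitochondrial FARS2 works alone. Several cytosolic members, among them RARS, KARS, MARS, LARS and IARS, sit together in the multisynthetase complex. Uncharged tRNA is known to activate the kinase EIF2AK4 and through it the transcription factor ATF4, which raises many synthetase genes in mammalian cells. The blastocyst is a stage of growth, with an outer trophectoderm and an inner cell mass that both make protein at a high rate.

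Embryos came from in vitro maturation, fertilization and culture of oocytes from slaughterhouse ovaries, and each sample was a pool of 10 blastocysts collected 196 hours after fertilization. The AAPH group received 0.01 mM AAPH in its synthetic oviductal fluid from day 3 to day 7, and the control group had the same 3-step culture with no added compound. There were 4 pools per treatment, no genotype or sex was given, and each RNA was amplified in several rounds before labelling. On 8 two-colour arrays AAPH RNA was in Cy5 on 4 and in Cy3 on 4, and arrays of opposite orientation were averaged into 4 swap pairs. The labels do not give this pairing, which was inferred from correlations between the arrays, so the pool numbers used below rest on it. The comparison asks how radical exposure during culture alters the blastocyst's transcripts. In such bulk pools, fewer cells of a type and less RNA per cell cannot be told apart.

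The number of probes above background per array was 17297 to 34802 for AAPH and 15957 to 36066 for control. The Cy5 channel of slides 78 and 79, which hold swap pairs 3 and 4, had 15957 to 22399 such probes, against 28364 to 30521 in Cy3, and slide 26 holds pairs 1 and 2. All 9 trophectoderm markers listed were measured, as were 4 of 5 of the inner cell mass and 3 of 4 of the hypoblast. Passing the filter does not single out this tissue, since 7 of 7 fibroblast, 5 of 5 cumulus and 3 of 3 blood markers were measured too. Connective tissue genes had positive mean ratios: 7 of 7 fibroblast markers had an unadjusted p under 0.05 with limma, beside 13.4% of all probes, 5.68% higher in AAPH. None had an adjusted p under 0.05, and the list was chosen with earlier results of these data known. Their median log2 ratio was 0.78, with a mean log2 signal per pool of 8.56 to 10.76 in AAPH and 7.95 to 9.44 in control. In pair 4 COL1A2 was at -0.38 and DCN at -0.32, and DCN was above background on 0 arrays of that pair with either RNA. Cumulus markers had a median ratio of 0.14 and a mean signal of 7.22 to 7.72 in AAPH against 7.06 to 7.21 in control, led by PTX3 at 1.10 ± 0.91 and TNFAIP6 at 0.85 ± 0.95 (SD, n = 4). The 3 blood markers had a median ratio of -0.12, and none of the fibroblast, cumulus or blood markers was below background throughout. The part of these other cells in the synthetase values was not tested.

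Of the 28 synthetase genes 27 gave a usable signal. A probe was kept when its signal exceeded the negative control spots on at least 4 of 8 arrays in AAPH or in control RNA, and 39 probes of 27 genes were kept. All 23 cytosolic probes passed (100%) and 16 of 20 mitochondrial probes did (80%), beside 75.2% of all probes. Above background on all 8 arrays in both RNAs were 16 cytosolic probes (69.6%) and 9 mitochondrial probes (45%), against 31.2% of all probes. The 4 probes left out were the only one of PARS2, the mitochondrial prolyl enzyme, 1 of RARS2 and 2 of YARS2. PARS2 exceeded background on 3 arrays with each RNA, so no ratio is given for it.

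No synthetase probe passed the test for a difference between AAPH and control. With limma over 32931 kept probes and Benjamini-Hochberg adjustment, 0 of 39 had a value below 0.05, the lowest being 0.172 for WARS. The share called among all probes was 0%, with a smallest adjusted p of 0.146. At an unadjusted p under 0.05 there were 10 synthetase probes (25.6%), 8 lower and 2 higher in AAPH, beside 13.4% of all probes, 7.75% lower and 5.68% higher. By class these were 7 of 23 cytosolic probes (30.4%), 6 lower and 1 higher, and 3 of 16 mitochondrial probes (18.8%), 2 lower and 1 higher. Without the 2 probes that were kept through only 1 treatment, 9 of 37 had such a p. The sign was the same in 4 of 4 swap pairs for 16 probes (41.0%), 10 lower and 6 higher, beside 22.2% of all probes, 10.6% lower and 11.6% higher. Some of these probes share a gene, and SARS2 EMBV3_42967, kept through the control group alone, is among the lower ones. Counted by gene mean, 9 of 27 genes had 1 sign in all pairs (33.3%), 6 lower and 3 higher, beside 21.9% of all genes. On slide 26 alone 3 of 39 probes had an unadjusted p under 0.05, all lower, beside 9.08% of all probes in that fit. On slides 78 and 79 alone 10 did, 5 in each direction, beside 16.7% of all probes. The median 95% confidence interval of a synthetase probe reached 0.19 to either side of its log2 ratio.

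The signal varied more between pools than the ratio did between swap pairs. The log2 signal of a synthetase probe had a median SD of 0.22 between the 4 AAPH pools and 0.21 between the 4 control pools. The ratio had a median SD of 0.15 between the 4 swap pairs. The SD between pools can also hold differences between slides, since pairs 1 and 2 were on slide 26 and pairs 3 and 4 on slides 78 and 79. On each array both RNAs were read from the same spots, so variation common to both channels enters the pool SDs and cancels in the ratio. The smaller SD of the ratio is therefore not a result about the pools. The levels of the AAPH pools and of the control pools overlapped for all 39 probes, and 1.93% of all probes had levels that did not. Overlap, here and below, compares levels across arrays and leaves the pairing aside. The plot of the probes by swap pair shows every ratio behind these counts.

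**Figure D1:**
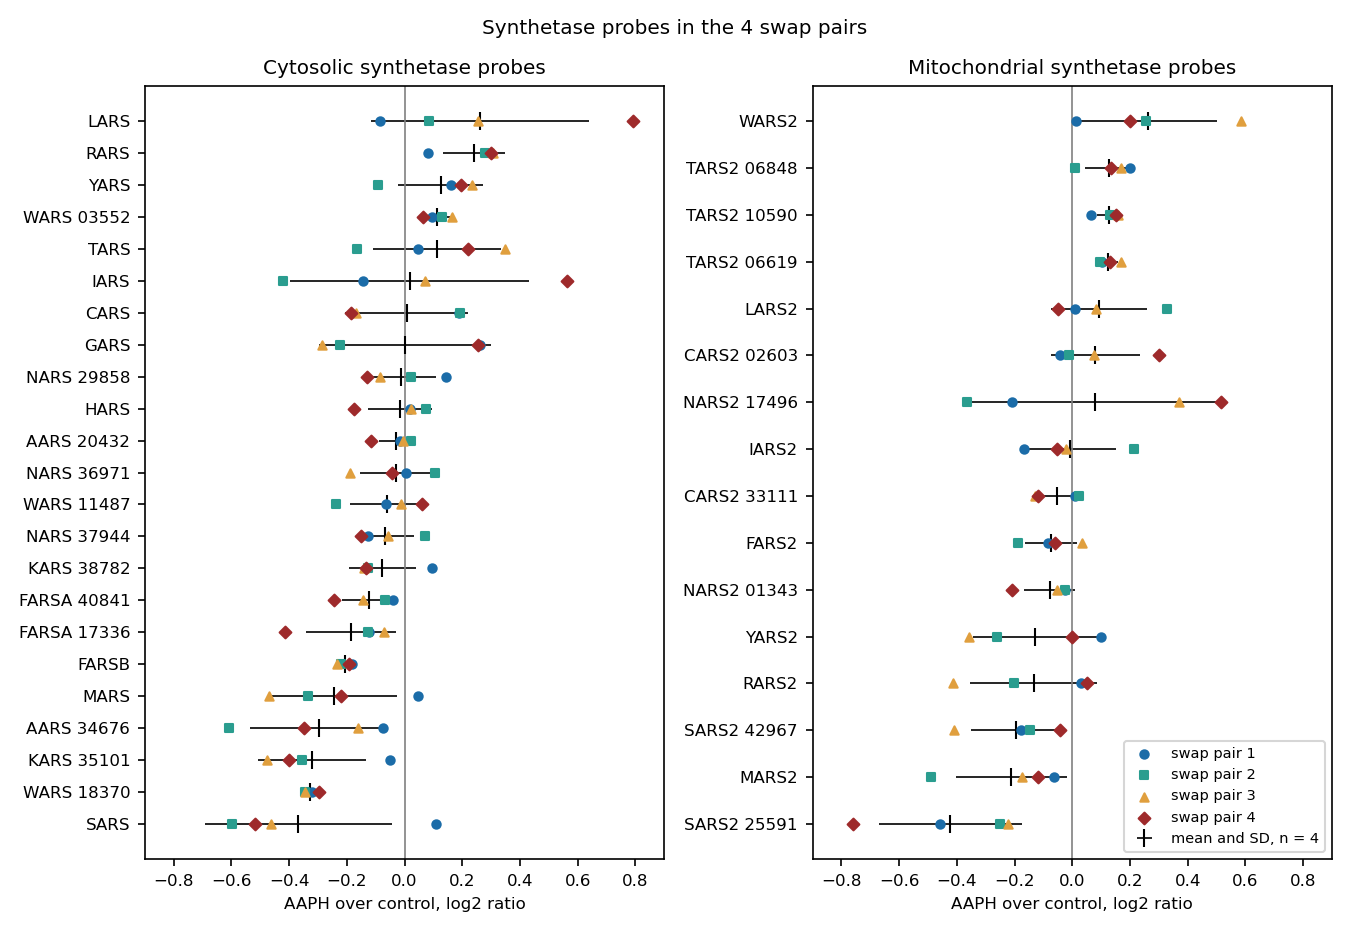
Log2 ratio of AAPH over control for the 23 cytosolic and 16 mitochondrial synthetase probes that were kept, with 1 symbol per swap pair and the mean and SD of 4 pairs as a bar. Probes are ordered by mean ratio, from -0.42 (SARS2) to 0.26 (WARS2), and where a gene has several probes the last 5 digits of the probe name are given.

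Among cytosolic probes WARS EMBV3_18370 had the smallest p. WARS charges tryptophan tRNA and is known in human cells as an interferon-induced gene. Its log2 signal in AAPH pools 1 to 4 was 9.89, 9.75, 9.35 and 9.98, and in control pools 10.21, 10.09, 9.69 and 10.28. Each AAPH pool was below the control pool of its own pair by nearly the same amount, while the groups as a whole overlapped. The log2 ratio was -0.33 ± 0.02 (SD, n = 4), a 1.25-fold lower signal, with limma adjusted p = 0.172 and unadjusted p = 0.00107. Other probes of WARS did not share this value and are described with the agreement between probes.

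KARS, the lysyl enzyme of cytosol and mitochondrion, was measured by a bright and a dimmer probe. The bright one, EMBV3_35101, had a log2 signal of 14.46, 13.91, 14.19 and 14.36 in AAPH pools and 14.51, 14.27, 14.66 and 14.76 in control pools. All 4 pairs were lower in AAPH, pair 1 by the least, and the groups overlapped. The ratio was -0.32 ± 0.19 (limma adjusted p = 0.247). FARSB, the beta subunit of the phenylalanyl enzyme, had a signal of 14.28, 14.10, 14.21 and 14.44 in AAPH and 14.46, 14.31, 14.44 and 14.63 in control. Its ratio was -0.21 ± 0.02, with pair values between -0.23 and -0.18 and a limma adjusted p of 0.257. FARSA, the partner subunit, had ratios of -0.18 ± 0.16 and -0.12 ± 0.09 at its 2 probes, and all 8 pair values were lower in AAPH. Both probes were dim, above background on 6 arrays for AAPH and on 7 and 6 for control. The second, EMBV3_40841, passed on 0 arrays of pair 3 with either RNA.

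SARS, which charges serine tRNA and also puts serine on the selenocysteine tRNA, had the lowest mean ratio of the cytosolic genes. Its log2 signal was 10.73, 10.35, 9.53 and 9.75 in AAPH pools and 10.62, 10.95, 9.99 and 10.27 in control pools. Pair 1 was higher in AAPH by 0.11 and the other 3 were lower by 0.60, 0.46 and 0.52, so the pools of the treatments were mixed. The ratio was -0.37 ± 0.32 (limma adjusted p = 0.311). MARS, the methionyl enzyme, had the same form, with pair values of 0.05, -0.33, -0.47 and -0.22 and a mean of -0.24 ± 0.22. AARS, the alanyl enzyme, was lower in all 4 pairs at EMBV3_34676, with log2 signals of 7.61, 7.13, 6.81 and 7.20 in AAPH and 7.68, 7.74, 6.97 and 7.55 in control. Its ratio there was -0.30 ± 0.24 (limma adjusted p = 0.306), pair 2 lay farthest from 0 at -0.61, and the probe passed background on 6 arrays for AAPH and 7 for control.

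RARS, the arginyl enzyme, was the only cytosolic gene whose mean was higher in AAPH in 4 of 4 pairs. Its log2 signal was 12.33, 12.65, 12.13 and 12.46 in AAPH pools and 12.25, 12.37, 11.82 and 12.16 in control pools. Pairs 2 to 4 were higher by 0.28, 0.30 and 0.30, and pair 1 by 0.08, with overlap between the groups. The ratio was 0.24 ± 0.11 (limma adjusted p = 0.260), a 1.18-fold higher signal. LARS, the leucyl enzyme that in human cells also reports leucine to the mTORC1 kinase, had the highest cytosolic mean at 0.26 ± 0.38, which pair 4 carried with 0.79 beside -0.09, 0.09 and 0.25 in pairs 1 to 3. YARS, the tyrosyl enzyme, was at 0.12 ± 0.15, higher in 3 of 4 pairs. The SDs of LARS and YARS were larger than their means.

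The other cytosolic enzymes lay near 0. TARS, for threonine, was at 0.11 ± 0.22, IARS, for isoleucine, at 0.02 ± 0.42, and CARS, for cysteine, at 0.01 ± 0.21. GARS, for glycine, was at 0.00 ± 0.30 and HARS, for histidine, at -0.02 ± 0.11. IARS and GARS had wide pair values that cancelled in the mean: IARS ran from -0.42 in pair 2 to 0.56 in pair 4, and GARS was 0.26 in pairs 1 and 4 against -0.22 and -0.29 in pairs 2 and 3. A mean near 0 in these genes did not come from steady values.

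**Figure D2:**
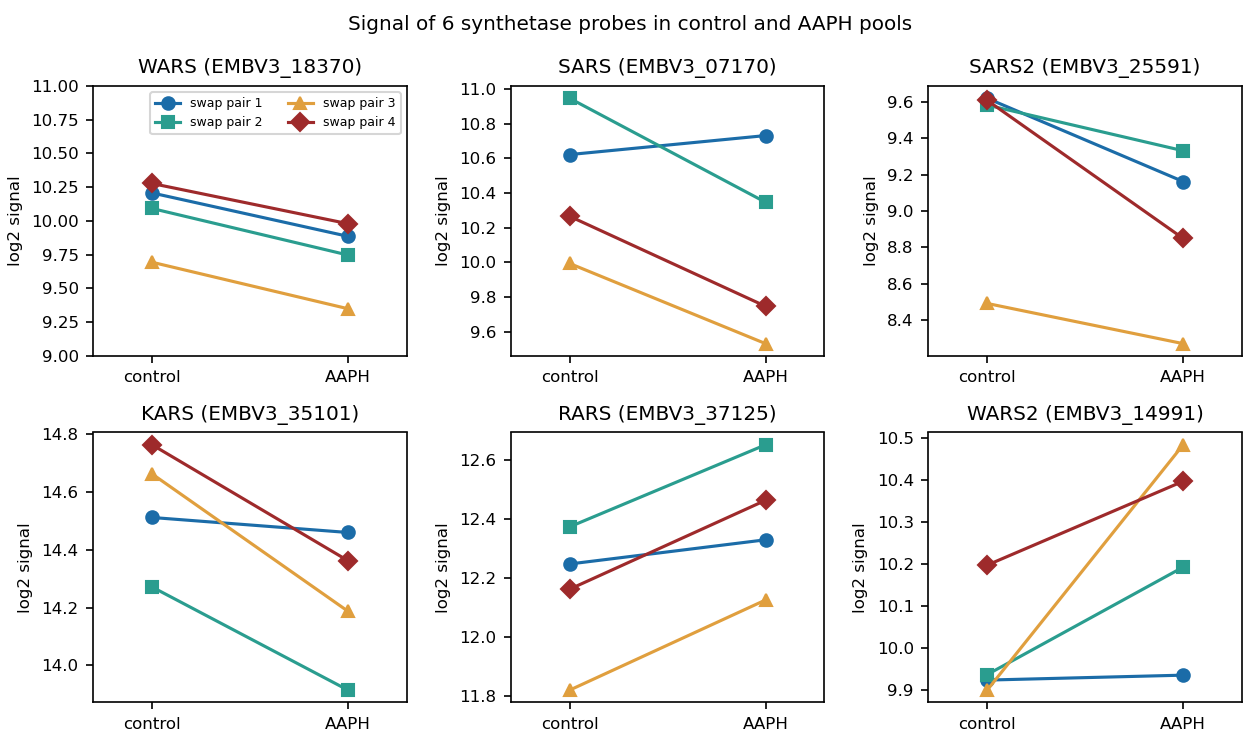
Log2 signal of 6 synthetase probes in control and AAPH pools, with a line for each swap pair. For WARS, SARS2 and KARS every line slopes down from control to AAPH, for RARS and WARS2 every line slopes up, and for SARS pair 1 goes against the other 3, while in each panel the levels of the groups overlap.

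Among mitochondrial enzymes SARS2, the seryl enzyme, had the lowest ratios. At EMBV3_25591 its log2 signal was 9.16, 9.33, 8.27 and 8.85 in AAPH pools and 9.62, 9.58, 8.49 and 9.61 in control pools. Every AAPH pool was below its control partner, by 0.22 in pair 3 and by 0.76 in pair 4, with overlap between the groups. The ratio was -0.42 ± 0.25 (limma adjusted p = 0.228), a 1.34-fold lower signal. At EMBV3_42967 the pair values were -0.18, -0.15, -0.41 and -0.04 with a mean of -0.20 ± 0.15 (limma adjusted p = 0.364). That probe passed background on 1 array for AAPH and on 4 for control, so it was kept through the control group alone and its level in AAPH is mostly a bound.

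MARS2, the mitochondrial methionyl enzyme, had a log2 signal of 9.67, 9.63, 10.16 and 10.12 in AAPH and 9.73, 10.12, 10.33 and 10.24 in control. All 4 pairs were lower in AAPH, pair 2 by the most, and the ratio was -0.21 ± 0.19 (limma unadjusted p = 0.0503, adjusted p = 0.373). RARS2, for arginine, and YARS2, for tyrosine, were at -0.13 ± 0.22 each, lower in pairs 2 and 3 and slightly higher in pairs 1 and 4. FARS2, for phenylalanine, was at -0.07 ± 0.09 and lower in 3 of 4 pairs. Its probe was dim, above background on 6 arrays for AAPH and 5 for control.

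WARS2, the mitochondrial tryptophanyl enzyme, had the highest mean of its class. Its log2 signal was 9.93, 10.19, 10.48 and 10.40 in AAPH pools and 9.92, 9.94, 9.90 and 10.20 in control pools. AAPH was higher in every pair, by 0.01 in pair 1 and 0.58 in pair 3, and only the AAPH pool of pair 1 and that of pair 2 lay below the highest control pool. The ratio was 0.26 ± 0.24 (limma adjusted p = 0.352). TARS2, the mitochondrial threonyl enzyme, was at 0.13 ± 0.04 as the mean of its 3 probes, higher in 4 of 4 pairs. LARS2, for leucine, was at 0.09 ± 0.17, higher in 3 of 4 pairs, with pair 2 at 0.33. CARS2, NARS2 and IARS2, for cysteine, asparagine and isoleucine, had means of 0.01 ± 0.05, 0.00 ± 0.18 and -0.01 ± 0.16.

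Genes of each compartment lay on both sides of 0. The median log2 ratio was -0.03 over 16 cytosolic genes, of which 9 were lower and 7 higher in AAPH, and -0.01 over 11 mitochondrial genes, of which 7 were lower and 4 higher. Over all 12606 genes the median was 0.00 and 48.9% were lower. The cytosolic median was 0.02, -0.16, -0.10 and -0.14 in pairs 1 to 4, and the mitochondrial one -0.02, -0.19, -0.02 and 0.00. The median of all genes was within 0.02 of 0 in every pair. Both classes were close to 0 in pair 1 and both were below 0 in pair 2. Taken without sign, the median ratio was 0.14 for cytosolic and 0.13 for mitochondrial genes, against 0.08 over all genes, a description with no test. The sets were not matched for brightness. Of cytosolic probes 69.6%, of mitochondrial probes 45% and of all probes 31.2% were above background on all 8 arrays in both RNAs. The part of brightness in these medians was not tested. On slide 26 the medians were -0.07 and -0.08, and on slides 78 and 79 they were -0.09 and -0.01.

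Enzymes for the same amino acid in cytosol and mitochondrion were then set side by side, as ratios since levels of different probes cannot be compared. Of 12 such sets for 11 amino acids, 8 had the same sign, 5 lower and 3 higher in AAPH, and 4 had opposite signs. Phenylalanine gives 2 of the 5 lower sets, since FARS2 is set against both FARSA and FARSB. The asparagine set counts as lower with NARS2 at -0.000206, a sign that changed in 5 of 16 other settings. The cysteine set counts as higher with CARS at 0.007 and CARS2 at 0.013. The isoleucine set counts as opposite with IARS at 0.017 and IARS2 at -0.008. Each of these cysteine and isoleucine means changed sign in some settings, so the counts of sets rest partly on values close to 0. The serine enzymes were the lowest on both sides, with gene means of -0.37 for SARS and -0.31 ± 0.08 for SARS2. The SARS2 mean includes EMBV3_42967, whose level in AAPH is mostly a bound, and EMBV3_25591 alone was at -0.42 ± 0.25. The methionine enzymes came next at -0.24 and -0.21, and the phenylalanine enzymes were lower on both sides too. Tryptophan and arginine had opposite signs. WARS as the mean of 3 probes was below WARS2 in 4 of 4 pairs, by 0.36 ± 0.23, and RARS was above RARS2 in 4 of 4 pairs, by 0.38 ± 0.29. YARS was above YARS2 by 0.25 ± 0.23 and FARSB below FARS2 by 0.13 ± 0.10, each in 4 of 4 pairs. In the other 8 sets the order of the compartments changed between pairs, and the median difference, cytosolic minus mitochondrial, was -0.02. These differences carry no test of their own.

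**Figure D3:**
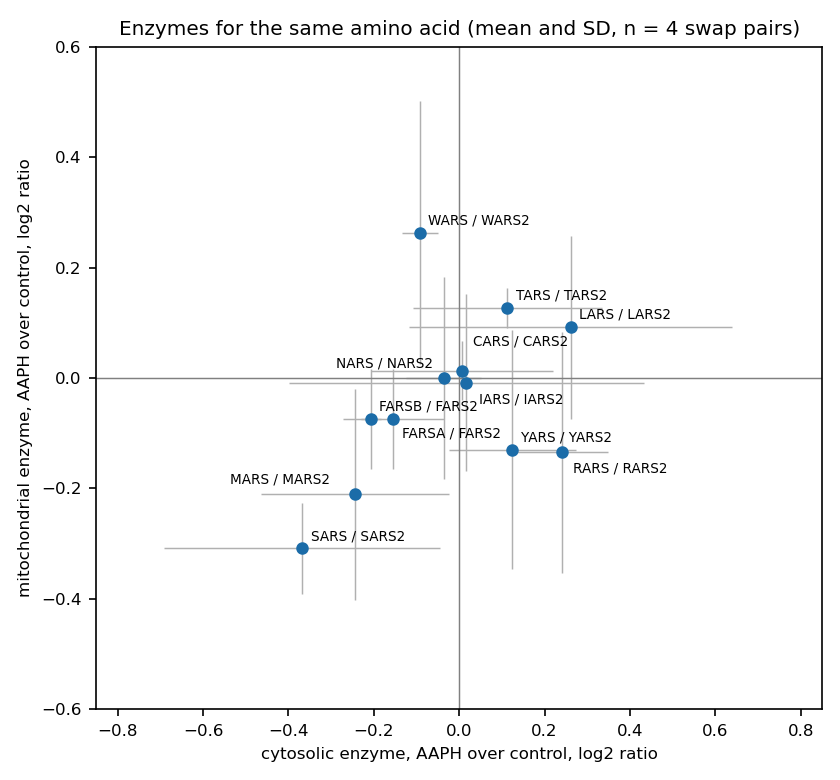
Mean log2 ratio of AAPH over control of the cytosolic enzyme (horizontal axis) against that of the mitochondrial enzyme for the same amino acid (vertical axis), with SD bars over 4 swap pairs. The serine set lies at the lower left at -0.37 and -0.31 (the mean of both SARS2 probes), and the tryptophan set lies alone at the upper left at -0.09 and 0.26.

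Probes of the same gene agreed in sign in 6 of 9 synthetase genes with several kept probes (66.7%), beside 1426 of 3045 genes on the whole array (46.8%). The range between probes of a gene had a median of 0.16, against 0.17 over all genes. Each probe was also tested against the other probes of its gene, with limma over 5835 such differences. None passed adjustment (0% called, and 15.1% at an unadjusted p under 0.05 over all genes). The 3 probes of TARS2 were at 0.13 ± 0.03, 0.13 ± 0.08 and 0.13 ± 0.04, and all 12 pair values were higher in AAPH, although none had an unadjusted p under 0.05 (0.0717, 0.0896 and 0.0716 with limma). The first of them, EMBV3_06619, was above background on all 8 arrays in both RNAs, EMBV3_06848 on 7 for AAPH and 6 for control, and EMBV3_10590 on 6 and 6. The 3 probes of NARS, the asparaginyl enzyme, were at -0.01 ± 0.12, -0.03 ± 0.12 and -0.07 ± 0.10, with 5 of 12 pair values higher. FARSA was lower in 8 of 8 pair values, with neither of its probes above background on all 8 arrays. SARS2 was lower in 4 of 4 at EMBV3_25591, and it counts among the 6 genes only through EMBV3_42967, the probe kept through the control group alone.

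WARS was the gene whose probes differed most. Beside -0.33 at EMBV3_18370, its other probes were at -0.06 ± 0.13 and 0.11 ± 0.04. EMBV3_18370 was above background on all 8 arrays in both RNAs, EMBV3_03552 on 6 in AAPH and 6 in control, and EMBV3_11487 on 4 and 4. The bright probe lay 0.35 ± 0.05 below the mean of the others (limma unadjusted p = 0.0045, adjusted p = 0.145), and EMBV3_03552 lay 0.31 ± 0.10 above (unadjusted p = 0.0113, adjusted p = 0.189). The mean of -0.09 ± 0.04 for WARS thus joins probes of opposite sign. For KARS the bright probe was 0.24 ± 0.08 below the dimmer one, which was at -0.08 ± 0.11 (limma adjusted p = 0.268). For AARS the probe at -0.30 differed by 0.27 ± 0.25 from EMBV3_20432, which was at -0.03 ± 0.06 (limma adjusted p = 0.327). CARS2 and NARS2 had probes on both sides of 0, at 0.08 and -0.05 for CARS2 and at -0.08 and 0.08 for NARS2. The CARS2 probe at -0.05, EMBV3_33111, was kept through AAPH alone, with 5 arrays above background for AAPH and 3 for control. The array's annotation does not say which transcript form each probe reads.

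**Figure D4:**
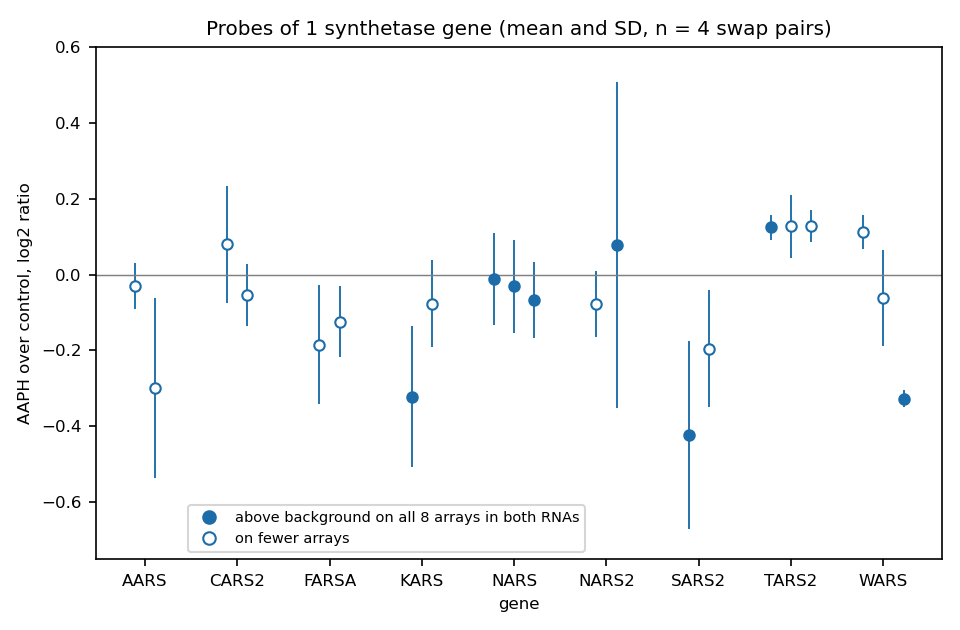
Mean log2 ratio and SD over 4 swap pairs for each kept probe of the 9 synthetase genes with several kept probes. Filled points were above background on all 8 arrays in both RNAs; the 3 TARS2 probes coincide at 0.13, and the 3 WARS probes run from 0.11 to -0.33.

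Other genes of tRNA charging and of the response to uncharged tRNA were taken from a list of 62, of which 57 had a probe and 56 were measured, with 77 probes. None of the 77 had an adjusted p under 0.05 (smallest 0.151), and 9 had an unadjusted p under 0.05 (11.7%), 3 higher and 6 lower, beside the 13.4% of all probes. The gene median was -0.01, with 25 genes higher and 31 lower. By this count the wider pathway was near the background of the array.

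The largest ratio of the list was that of TARSL2, a paralogue of TARS that in mouse charges threonine tRNA in the cytosol. Its log2 signal was 8.78, 8.14, 8.59 and 7.76 in AAPH pools and 7.76, 7.27, 8.12 and 7.24 in control pools. All pairs were higher in AAPH, by 1.02, 0.86, 0.47 and 0.51, and the groups overlapped, since the AAPH pool of pair 4 lay below the control pool of pair 3. The ratio was 0.72 ± 0.27 (limma adjusted p = 0.151), a 1.65-fold higher signal. Together with TARS at 0.11 and TARS2 at 0.13, the 3 threonyl genes all had positive means, of which that of TARS was smaller than its SD. CLP1, an RNA kinase of the tRNA splicing complex, was lower in 4 of 4 pairs at -0.31 ± 0.09 (limma adjusted p = 0.189).

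The sensor of uncharged tRNA, EIF2AK4, had a log2 signal of 11.29, 11.34, 11.89 and 12.04 in AAPH pools and 10.91, 11.20, 11.66 and 11.67 in control pools. It was higher in 4 of 4 pairs with overlap between the groups, at 0.28 ± 0.12 (limma adjusted p = 0.231). SESN2, a leucine sensor upstream of mTORC1, was at 0.19 ± 0.14 (limma adjusted p = 0.357). Its probe was dim, with a mean log2 signal of 7.12 in AAPH and 6.93 in control. It passed background on 6 arrays with each RNA, and on 1 of 2 in pairs 3 and 4. A second SESN2 probe, above background on 3 arrays with each RNA, was not kept and was higher in 2 pairs and lower in 2. SHMT2, a mitochondrial enzyme of serine use, was at -0.31 ± 0.19 at 1 probe (limma adjusted p = 0.256), which was above background on all 8 arrays in both RNAs. Its other 3 probes, at 0.05, -0.04 and 0.03, were dimmer. They passed background on 7, 3 and 6 arrays for AAPH and on 4, 5 and 6 for control. ATF4 itself was at -0.10 ± 0.28. Its targets ASNS, the asparagine synthetase, and TRIB3, a pseudokinase, were at -0.26 ± 0.47 and -0.05 ± 0.56. CHAC1, a target that degrades glutathione, was at -0.35 ± 0.31 and lower in 3 of 4 pairs (limma unadjusted p = 0.0267, adjusted p = 0.316). DDIT3, a target that encodes a transcription factor, was at -0.20, -0.18 and 0.03 at its 3 probes. The last of these was above background on all 8 arrays in both RNAs, the first on 7 for AAPH and 8 for control, and the second on 6 and 6. In the same group PSAT1 was at 0.15 ± 0.42, higher in 2 of 4 pairs, and SLC7A11 was at -0.0008 ± 0.10. Of 19 measured genes of the amino acid and integrated stress response, 5 were higher and 14 lower, with a median of -0.05.

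The remaining groups had small medians. The elongation factors grouped under delivery to the ribosome were EEF1A1, EEF1D, EEF1G, EEF2, TUFM and TSFM. They were lower in 6 of 6 genes with a median of -0.13, beside 48.9% of all genes, and 0 of their 9 probes had an unadjusted p under 0.05. Each of these probes had a mean smaller than its SD, and none was lower in every pair. EEF2 was lower only narrowly, with probes at 0.003 and -0.02. The 3 scaffold genes of the multisynthetase complex had a median of -0.07. AIMP1 was at 0.26 ± 0.45, and the kept probes of EEF1E1 were at -0.09 and -0.05. AIMP2 had probes at -0.11, 0.07 and -0.31. The last of these, EMBV3_26049, was the only scaffold probe with an unadjusted p under 0.05 (limma unadjusted p = 0.0303, adjusted p = 0.330). It was kept through the control group alone, with 2 arrays above background for AAPH and 5 for control. The 4 genes of mitochondrial amidation and formylation, which make glutamine and formylmethionine tRNAs, had a median of -0.02, and the 4 of selenocysteine use 0.03. The 4 related and editing enzymes, TARSL2 included, had a median of 0.06. The 16 genes of tRNA maturation and export had a median of 0.02, with 9 higher and 7 lower.

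**Figure D5:**
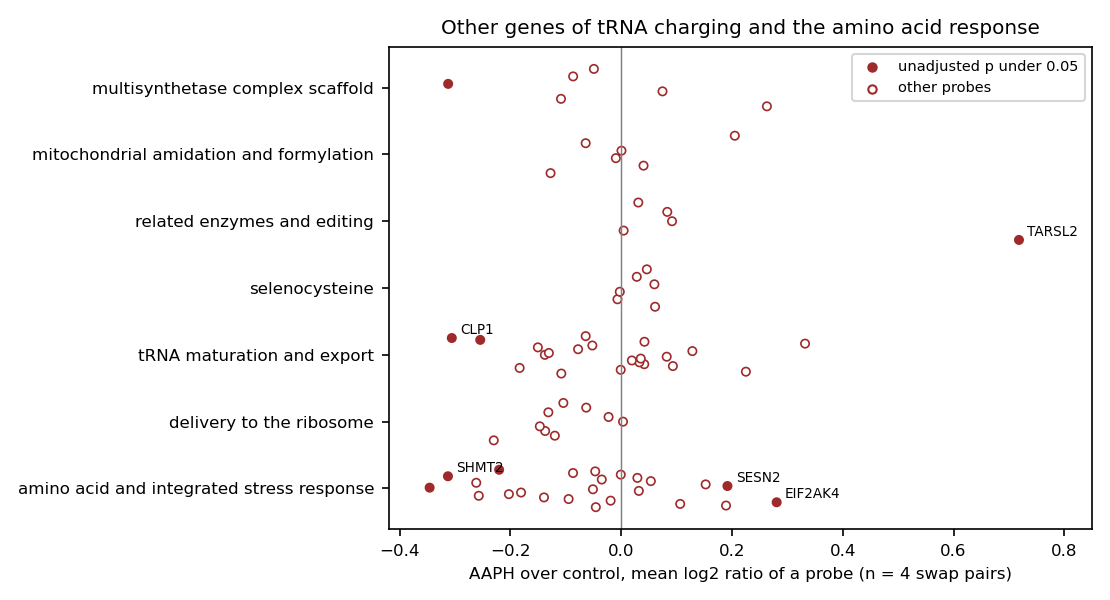
Mean log2 ratio of AAPH over control of 77 probes for other genes of tRNA charging and the amino acid response, by group, with filled points for an unadjusted p under 0.05. TARSL2 lies at 0.72, apart from the other probes, which run from -0.35 to 0.33.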

How the data were processed

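Each array carried RNA of an AAPH pool and of a control pool. Per the file headers, the deposited scanner files give each spot's foreground and local background intensity, linear and not normalized, and end in 14 lines of column statistics, which were dropped. The authors' deposited log2 ratios cover the same arrays, and their normalization remains unknown. The submitters' processing notes name limma, without a version. Against the scanner ratios they had correlations of 0.967 to 0.994 and slopes of 0.943 to 0.990, so they are log2 values of AAPH over control. The column medians for arrays 1 to 8 were -0.0135, -0.00863, 0.0117, 0.00944, -0.0152, 0.00799, -0.0188 and -0.0197, and the table served as an alternative.

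In R 4.3.3 with limma 3.58.1, normexp (offset 50) was applied to mean foreground and median background, and loess was run within arrays with control spots at weight 0. Signals per pool were taken after Aquantile scaling. A spot was above background when it exceeded the median of 153 negative controls by 3 median absolute deviations. A probe was kept when this held on 4 of 8 arrays in either RNA, which left 32931 probes. The gene value is the mean of its kept probes. Ratios were tested against 0 with lmFit and eBayes at 3 residual degrees of freedom before moderation, with Benjamini-Hochberg adjustment over all kept probes and a threshold of 0.05. The number of arrays limits the precision.

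The labels do not say which arrays share extracts. Arrays were paired as 1 and 3, 2 and 4, 7 and 5, and 8 and 6, a pairing that rests on earlier results of these data. It comes from the correlation of array deviations in these same data. Here the paired arrays correlated at 0.139 to 0.555 in their deviations from the orientation mean, and the 12 other pairs at -0.343 to 0.0498. No array correlated better with another than with its partner. Since such correlations gave the pairing, these values are not an independent check of it. Nothing says that the pools came from separate fertilizations, so the p-values reflect only how these pools varied, which may be partly technical.

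The platform annotation, an old one, gave 1 symbol to 21790 probes, several to 0 and none to 22004. RefSeq's gene table for ARS-UCD2.0 holds 14 of the 28 synthetase symbols as current names and 14 as synonyms, and the annotation's spelling is kept. No coordinates are printed, since the probes' genome build is unknown here. The members and gene lists were chosen with earlier results of these data known. Per-pool values are given for synthetase probes with an unadjusted p under 0.05 and 1 sign in all pairs, for the 3 highest and lowest gene ratios of each class and for genes with 3 or more kept probes, some of them as ratios. Other pathway genes are named when their unadjusted p was under 0.05 with 1 sign in all pairs. AIMP1, AIMP2, EEF1E1, EEF2, ATF4, ASNS, TRIB3, CHAC1, DDIT3, PSAT1 and SLC7A11 were chosen after their values were seen. The fit was tested on simulated data. Alternatives changed the filter, background correction, normalization, variance model, replicates, slides and pairing.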

Additional observations from a re-analysis of the deposited data

Results flagged for a closer look

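Dixon's test over the 4 swap pairs marked 5 of 41 synthetase ratios, where chance marks about 1 in 20, or 2.05. RARS EMBV3_37125 had 0.0818 in swap pair 1, below the other 3 pairs, which lay between 0.28 and 0.30. KARS EMBV3_38782 had 0.0951 in pair 1, while the others lay between -0.14 and -0.13. FARSA EMBV3_17336 had -0.416 in pair 4, against -0.13 to -0.07 in the others. NARS2 EMBV3_01343 had -0.208 in pair 4, against -0.05 to -0.02. The median of the mitochondrial genes was -0.187 in pair 2, against -0.02 to 0.00 in the other pairs.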

How the results depend on the processing

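None of the 8 probes chosen for an unadjusted p under 0.05 and 1 sign in all pairs changed sign in the alternatives run. For slides and left-out pairs this follows from that choice. Changes of the filter or the variance model leave a probe's ratio as it was, so they could not change its sign. Of 27 gene means, 16 kept their sign over up to 16 settings. The gene means of CARS, CARS2, GARS, HARS, IARS, IARS2, LARS, NARS, NARS2, TARS and YARS2 changed sign in at least 1 setting. With the paired arrays averaged no synthetase probe passed adjustment. Without this replicate block, in a fit of 8 single arrays with a dye term, 2 synthetase probes did, WARS EMBV3_18370 (limma adjusted p = 0.0242) and SARS2 EMBV3_25591 (0.0422), as did 3 of the other pathway probes and 930 probes in all. That fit takes the 2 arrays of a pair as separate samples. Over all settings the adjusted p of WARS EMBV3_18370 ran from 0.0242 to 0.550 and that of SARS2 EMBV3_25591 from 0.0422 to 0.550. The number of synthetase probes with an unadjusted p under 0.05 was 10 as reported (13.4% of all probes), 5 of 25 when a probe had to pass on all 8 arrays with 1 of the RNAs (15.1% of all), and 3 within slide 26 (9.08% of all). Leaving out 1 swap pair gave 6 to 11, with 6 without pair 2, pair 3 or pair 4 (9.86%, 9.12% and 9.71% of all) and 11 without pair 1 (15.5%). Over all settings the cytosolic median ran from -0.11 with median centring to -0.01, and the mitochondrial one from -0.08 within slide 26 to 0.02 without pair 1. With slide as a term, added after the data were seen, 9 probes had an unadjusted p under 0.05 (16.1% of all), and leaving out the synthetase probes kept through 1 treatment, also added then, gave 9 (13.4%). The low Cy5 signal of slides 78 and 79 limits at least 1 probe each of AARS, FARSA, KARS, WARS, CARS2, FARS2, NARS2, SARS2 and TARS2.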
